A study of Mus musculus with 25 samples.

Results

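Hepatic glucose output and glycogen turnover were followed through 8 genes chosen by symbol, of 41388 gene identifiers in the count tables: Pck1, G6pc, Fbp1, Pcx, Slc37a4, Ppargc1a, Gys2 and Pygl. All 8 symbols were found, and all 8 were among the 14065 genes kept after the filter on low counts. Liver RNA of 25 male C57B/6J mice aged 20 weeks was sequenced after poly-A selection, 1 library per mouse. The mice were Sirt1 LoxP/LoxP littermates, so the wild-type (WT) mice carried the floxed alleles too, and the liver-specific knockout (LKO) mice also carried Albumin-cre, which acts in hepatocytes. Each mouse received an adeno-associated virus (AAV8) with the hepatocyte-directed TBG promoter, carrying either NAMPT, an enzyme of NAD+ salvage, or no insert (empty vector, EV). The groups were WT EV on chow (3 mice), WT EV on Western diet (WD, 6 mice), WD WT NAMPT (6 mice), WD LKO EV (5 mice) and WD LKO NAMPT (5 mice). The comparisons asked how diet, the NAMPT vector and the genotype each bear on the liver transcriptome, and whether the effect of the vector differs with genotype.

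Gluconeogenesis makes glucose from lactate, glycerol and amino acids, and in the liver it sustains blood glucose during fasting. Pyruvate carboxylase (Pcx) turns pyruvate into oxaloacetate in mitochondria, PEPCK (Pck1) commits oxaloacetate to the pathway in the cytosol, and fructose-1,6-bisphosphatase (Fbp1) bypasses the phosphofructokinase step. The glucose-6-phosphate transporter (Slc37a4) carries glucose-6-phosphate into the endoplasmic reticulum, where glucose-6-phosphatase (G6pc) releases free glucose. Liver glycogen synthase (Gys2) and liver glycogen phosphorylase (Pygl) build and break down the stored polymer. Glucagon, through cAMP and CREB, raises Pck1, G6pc and the coactivator PGC1alpha (Ppargc1a) in fasting, and insulin represses them, in part by excluding FOXO1 from the nucleus.

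Promoter sequence is shown for 3 of the genes because each holds 1 of the short motifs searched, and because Pck1 and G6pc are the hormone-regulated genes and Pcx the gene with the largest diet difference. RefSeq promoter windows (GRCm38.p6, 250 bases before to 50 after each annotated start) matched 7 of the 8 genes, in 10 windows. Both strands were searched for TGACGTCA and TTACGTCA (cAMP response elements), GTAAACA (forkhead), CAAAACA (insulin response) and CACGTG (E-box). The stretches printed end before the gene start of both annotations, and capitals mark the matched letters.
Pck1, GRCm38.p6 chr2:173152823-173153047, + strand: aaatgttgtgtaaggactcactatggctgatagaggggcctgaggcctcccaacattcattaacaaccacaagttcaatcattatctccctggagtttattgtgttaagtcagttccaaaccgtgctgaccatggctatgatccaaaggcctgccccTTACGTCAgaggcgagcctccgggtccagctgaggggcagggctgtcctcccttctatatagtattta
G6pc, GRCm38.p6 chr11:101367466-101367560, + strand: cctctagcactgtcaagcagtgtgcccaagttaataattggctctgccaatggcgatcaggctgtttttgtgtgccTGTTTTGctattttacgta
Pcx, GRCm38.p6 chr19:4510222-4510471, + strand: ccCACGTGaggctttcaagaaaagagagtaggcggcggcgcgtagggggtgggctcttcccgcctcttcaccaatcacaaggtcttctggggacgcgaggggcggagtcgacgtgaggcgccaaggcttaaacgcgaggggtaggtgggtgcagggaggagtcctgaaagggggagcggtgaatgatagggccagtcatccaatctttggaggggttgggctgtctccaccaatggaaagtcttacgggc
The Pck1 window held TTACGTCA beginning 93 bases before the annotated start, a sequence present in 0.499% of all 32851 promoter windows. CAAAACA was found in the G6pc window on the opposite strand, so that the printed strand reads TGTTTTG, and in 6.28% of all windows. One of the windows of Pcx held CACGTG at its distal end, as did 7.15% of all windows. TGACGTCA (1.79% of windows) and GTAAACA (3.65%) were in none of the 10 windows. No motif of these contains another, and a match describes letters only.

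Library totals ranged from 20166175 to 32937326 counts, and the 8 genes had between 129 counts (the lowest Ppargc1a library) and 51853 counts (the highest Pck1 library). CPM here is each gene's share of its library's reads, scaled to a fixed library size and divided by the library's TMM normalization factor. Sirt1, the gene targeted in the LKO mice, had a median of 8.81 CPM in the 5 libraries labelled LKO EV. The median was 9.04 in the 6 WT EV libraries on the same diet (log2 fold change -0.07 ± 0.10 SE, adjusted p = 0.99 by limma). Under the NAMPT vector it was 10.3 CPM in the libraries labelled LKO against 8.73 in WT (0.19 ± 0.11, adjusted p = 0.237 by limma). Counts over the whole gene were thus not detectably lower in the libraries labelled LKO with either vector, and under NAMPT their median was the higher one. Nampt had a median of 58.8 CPM in WT NAMPT against 49.2 in WT EV (log2 fold change 0.34 ± 0.16, adjusted p = 0.144 by limma), and 73.6 CPM in LKO NAMPT against 55.7 in LKO EV (0.41 ± 0.16, adjusted p = 0.403 by limma). All 6 hepatocyte markers were expressed in every group, with summed levels between 44800 and 74400 CPM, and muscle and adipocyte markers were below the filter. LKO NAMPT replicate 3 stood out with an adipocyte marker sum of 2.79 CPM, against 0.254 CPM or less in every other library. The libraries WT NAMPT 1 and 2 stood apart, with the 2 highest normalization factors of the 25 (1.12 and 1.29) and the highest summed neutrophil markers. For the 8 genes, the lists of related genes and the correlations, results are given with and without them where a call depends on them. Marker and clock gene calls are given with all libraries only.

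Compared per length, in RPKM with the same normalization, Fbp1 was the most abundant of the 8 transcripts in WD WT EV liver at 620 ± 50.7 RPKM (SD, n = 6), with every library above those of the other 7 genes. By mean, Pck1 came next at 281 ± 88.7 RPKM (libraries from 157 to 397), then Pcx at 178 ± 23.9 (135 to 197), Pygl at 166 ± 6.79 (156 to 174) and G6pc at 139 ± 80.9 RPKM (58.9 to 227). The library ranges of these 4 genes all overlapped, so their order is not set beyond the spread. Slc37a4 at 56.1 ± 7.94 RPKM (45.3 to 65.8) overlapped both the lowest G6pc library and Gys2 at 48.6 ± 4.78 RPKM (43.2 to 55.3), and the coactivator Ppargc1a was lowest, and apart, at 1.46 ± 0.281 RPKM. The genes also differed in how far mice of the same group spread. In WD WT EV the coefficient of variation of CPM was 58.4% for G6pc and 31.6% for Pck1, against 4.10% for Pygl and 8.18% for Fbp1.

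**Figure D1:**
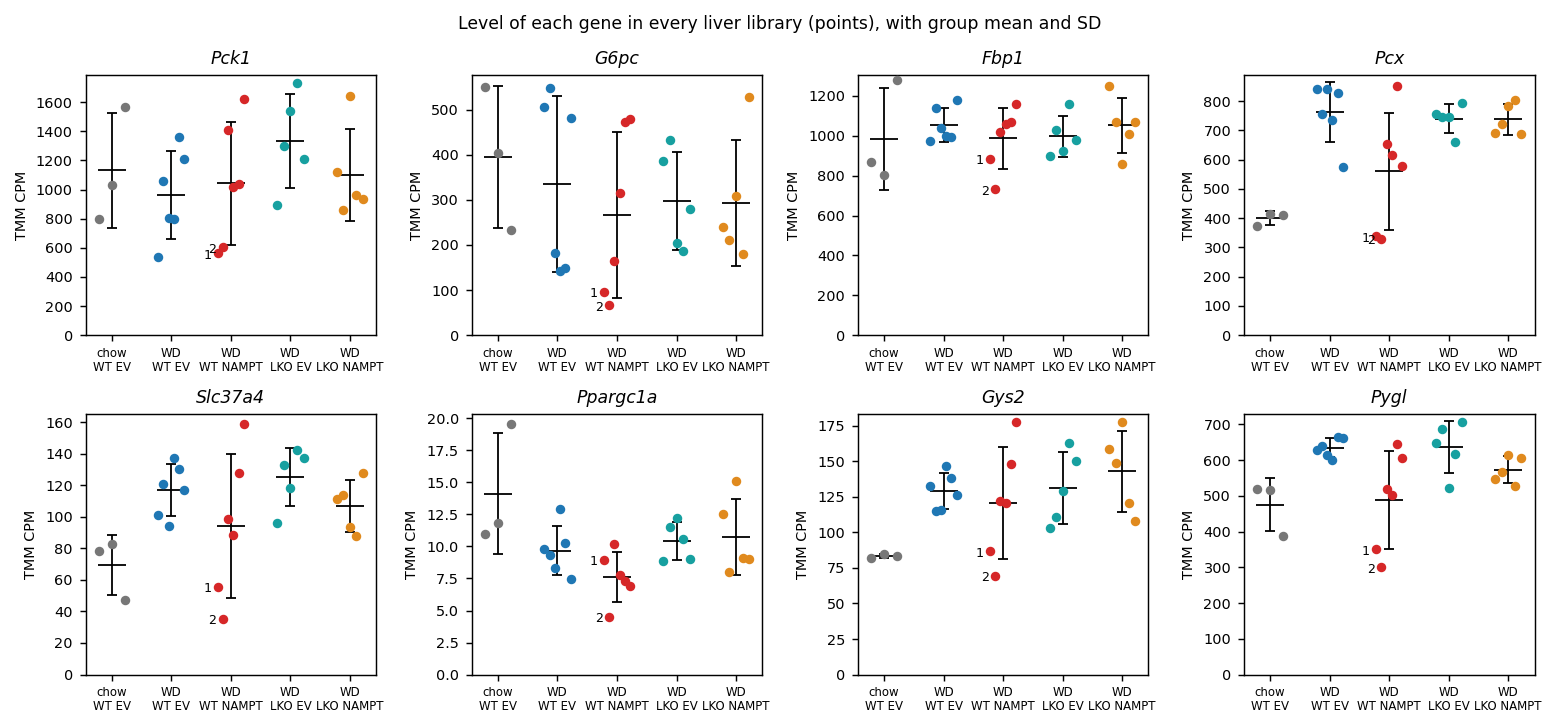
Normalized level (TMM CPM, linear axis from 0) of each of the 8 genes in every library, by group, with black bars for the group mean and SD. Pcx and Gys2 sit higher in the 6 WD WT EV libraries than in the 3 chow libraries, and the numbered WT NAMPT libraries 1 and 2 are low for most genes.

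Western diet was compared with chow in the WT EV mice. Pcx, Slc37a4, Gys2 and Pygl were higher on Western diet, so 4 of the 8 genes passed the test, all upward, against 22% of all genes tested in either direction. The 3 genes induced by glucagon in fasting, Pck1, G6pc and Ppargc1a, did not pass. Groups that did not overlap were seen for the same 4 genes, and for 16.1% of all genes. The median log2 fold change of the 8 genes was 0.31, against -0.005 over all genes.

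Pyruvate carboxylase (Pcx, ENSMUSG00000024892, chromosome 19, 4510472-4621752) gave the largest difference. Its level was 375, 416 and 412 CPM in the 3 chow libraries, and in the 6 WD libraries it ran from 576 over a median of 791 to 841 CPM. Every WD library was above every chow library, and the fitted change was 1.9-fold (log2 fold change 0.92 ± 0.14 SE, adjusted p = 3.84e-05 by limma). Pcx passed in all 18 alternative fits, with an adjusted p between 1.84e-05 and 0.00643.

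Liver glycogen synthase (Gys2, ENSMUSG00000030244, chromosome 6, 142422613-142473109) was nearly constant on chow, at 81.7, 84.8 and 83.5 CPM. On Western diet it ranged from 115 over a median of 129 to 147 CPM, wholly above chow. The log2 fold change was 0.60 ± 0.14, or 1.51-fold (adjusted p = 0.00371 by limma), and 14 of 18 alternatives kept the call (adjusted p between 0.000416 and 0.0738).

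The glucose-6-phosphate transporter (Slc37a4, ENSMUSG00000032114, chromosome 9, 44398176-44402963) had 78.1, 82.4 and 47.5 CPM on chow and from 94.3 over a median of 119 to 137 CPM on Western diet. The third chow library was the low one, and the groups did not overlap. Its log2 fold change was 0.62 ± 0.19 (1.54-fold, adjusted p = 0.0204 by limma), and the call was kept in 12 of 18 alternatives (adjusted p between 0.00999 and 0.113). Liver glycogen phosphorylase (Pygl, ENSMUSG00000021069, chromosome 12, 70190811-70231488) had 519, 516 and 389 CPM on chow and from 599 over a median of 633 to 665 CPM on Western diet. The chow libraries were all below the WD libraries, with the third again lowest. The difference was the smallest of those called, 1.27-fold (log2 fold change 0.34 ± 0.12, adjusted p = 0.0369 by limma), and 6 of 18 alternatives kept it, with an adjusted p between 0.0216 and 0.135. It was lost when any one of the 3 chow libraries, or WT EV replicate 1, 2, 7 or 8, was left out. Without the third chow library, which also stood apart in its clock genes, Pygl was at 0.29 and Fbp1 passed at 0.34 (adjusted p = 0.0119 by limma). Without the first or the second chow library the difference of Fbp1 was 0.06 or 0.01, and its adjusted p reached 0.988 by limma, so its value rests on single chow libraries. The call of Gys2 was lost without the first or the second chow library, and that of Slc37a4 without WT EV replicate 2.

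Of the genes that did not pass, PEPCK (Pck1, ENSMUSG00000027513, chromosome 2, 173153048-173159273) had 798, 1030 and 1570 CPM on chow and from 537 over a median of 934 to 1360 CPM on Western diet. The groups overlapped widely, with a log2 fold change of -0.09 (95% confidence interval -0.57 to 0.38). Glucose-6-phosphatase (G6pc, ENSMUSG00000078650, chromosome 11, 101367561-101377903) had 549, 403 and 233 CPM on chow. In the WD WT EV libraries G6pc lay between 142 and 182 CPM in replicates 4, 6 and 7 and between 481 and 547 CPM in replicates 1, 2 and 8. No WD WT EV library lay between these ranges, the chow libraries at 403 and 233 CPM did, and the log2 fold change was -0.45 with an interval of -1.36 to 0.47. Ppargc1a (ENSMUSG00000029167, chromosome 5, 51454249-51567725) had 11, 11.8 and 19.6 CPM on chow and from 7.48 over a median of 9.56 to 12.9 CPM on Western diet (log2 fold change -0.36, interval -0.72 to -0.01, adjusted p = 0.134 by limma). The Ppargc1a estimate moved to -0.69 without the first chow library, to -0.63 without the second and to -0.25 without the third, and it passed in none of these fits. Fbp1 (ENSMUSG00000069805, chromosome 13, 62864753-62888282) had 870, 804 and 1280 CPM on chow and from 974 over a median of 1020 to 1180 CPM on Western diet. The third chow library was the highest of all 9, and the log2 fold change was 0.28 with an adjusted p of 0.0585 by limma.

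**Figure D2:**
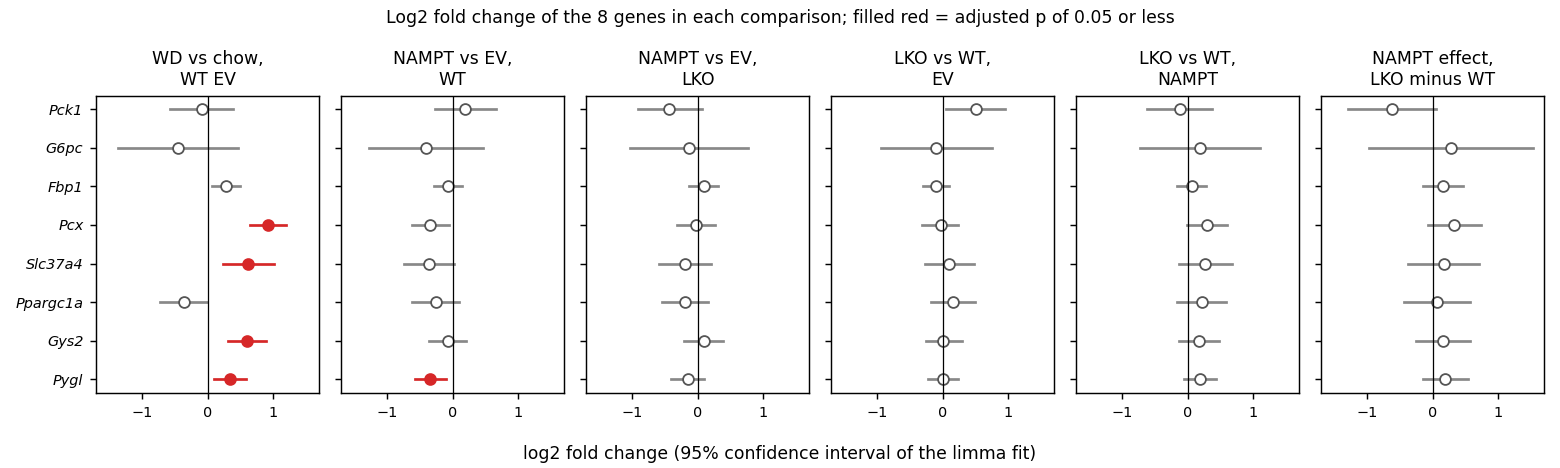
Fitted log2 fold change of each gene (points) with its 95% confidence interval (lines), 1 panel per comparison and the last panel for the difference of the NAMPT effects. Filled red points passed an adjusted p of 0.05: Pcx, Slc37a4, Gys2 and Pygl for diet, and Pygl for NAMPT in WT.

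The other genes of glucose metabolism were read from 6 lists with 91 genes kept, of which 26 were higher and 8 lower on Western diet by limma, with each of the 3 scalings. Over all genes called, 45.6% were higher with TMM factors and 32.6% with library size alone. Glycolysis and sugar uptake rose in 5 of 11 genes and fell in none. Liver pyruvate kinase (Pklr), which runs opposite to the Pcx and Pck1 route, had the largest rise at 3.52-fold (log2 fold change 1.81 ± 0.23, adjusted p = 7e-06). Pfkfb3, which makes an activator of phosphofructokinase, rose 2.23-fold. The list of shared steps, which holds enzymes used in both directions, the aspartate-malate enzymes and the related genes Pck2 and G6pc3, was higher for 5 of 13 genes and lower for 1, with Gapdh up 1.7-fold and Gpi1 up 1.44-fold, and with Tpi1 at 0.821-fold.

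Substrate entry genes rose in 6 of 15 and fell in none. The glycerol-3-phosphate dehydrogenases Gpd2 (2.04-fold) and Gpd1 (1.64-fold) and the mitochondrial dicarboxylate carrier Slc25a10 (1.81-fold) had the largest rises. Among 22 further glycogen genes 5 were higher and 1 lower. The branching enzyme Gbe1 rose 1.93-fold, Nhlrc1, the ubiquitin ligase malin, rose 2.54-fold, and Stbd1, a glycogen-binding protein, rose 1.58-fold. Ppp1r3c, which targets protein phosphatase 1 to glycogen, fell to 0.518-fold (log2 fold change -0.95 ± 0.34, adjusted p = 0.0468).

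Hormone and fasting genes moved both ways, with 2 of 10 higher and 4 lower. Pdk4, the fasting-induced kinase that shuts off pyruvate dehydrogenase, fell to 0.409-fold, the insulin receptor substrate Irs2 to 0.459-fold and the amino acid catabolic enzyme Tat to 0.518-fold. Cpt1a, the gate of mitochondrial fatty acid oxidation, rose 1.91-fold. Of 20 transcriptional regulators 3 were higher, Ppara (2.05-fold), Cebpb (2.03-fold) and Nr0b2, the repressor SHP (1.59-fold), and 2 were lower, the CREB coactivator kinase Sik1 (0.381-fold) and Creb1 itself (0.778-fold). Among all genes 22% were called in either direction, and the 5 of 20 regulators and 6 of 22 further glycogen genes called lie near that share, so these counts are no result about those lists.

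**Figure D3:**
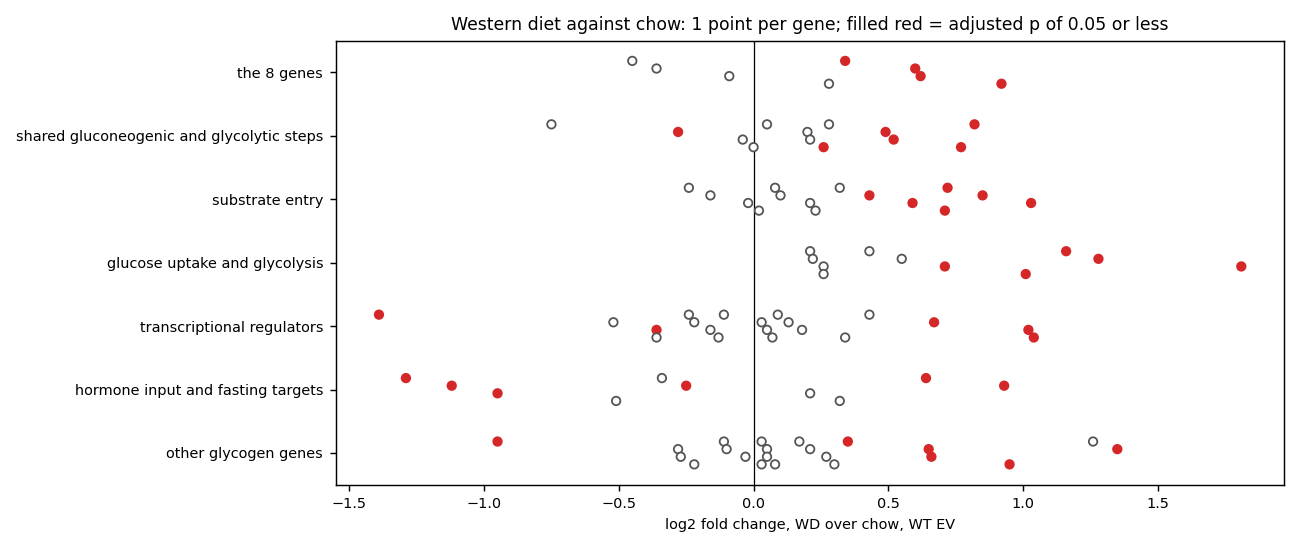
Log2 fold change of Western diet over chow in WT EV liver for the 8 genes and 6 lists of related genes, 1 point per gene, jittered in height only. Filled red points passed an adjusted p of 0.05, and all called genes of the glycolysis and substrate entry lists lie to the right of 0.

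Clock genes and zonation markers moved with the same comparison. Of 15 clock genes 6 were higher and 5 lower, among them Dbp (log2 fold change 4.04) and Arntl (-1.58), and the labels give no hour of collection. Diet and the state of the clock cannot be told apart here, because the clock score used as a covariate was taken within groups, and with it the same 4 genes passed. Periportal markers, of the zone where gluconeogenesis is strongest, were lower for 3 of 5, with a summed level of 1830 to 2340 CPM on chow and 841 to 1880 CPM on Western diet. Pericentral markers were lower for 1 of 6 (Cyp1a2, log2 fold change -1.17) and hepatocyte markers for 1 of 6 (Cps1, -1.22), with hepatocyte sums of 61600 to 74400 CPM on chow and 49800 to 66300 CPM on Western diet. Macrophage markers were higher for 2 of 5, with 215 to 271 CPM on chow and 267 to 391 CPM on Western diet. Of the markers of other cell types, Lyve1 (endothelial, 2.19-fold) and Lrat (stellate cell, 1.45-fold) were called higher. Kdr (endothelial, 0.868-fold) and Cela1 (exocrine pancreas, 0.404-fold) were called lower. Of the 4 stellate cell markers, 2 had positive and 2 negative fold changes, and Lrat was the 1 called. Cela1 was the 1 exocrine pancreas marker of 3 that passed the filter. The part of any of these in the 4 calls was not tested, and in whole liver fewer cells of a kind and less RNA per cell cannot be told apart.

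The NAMPT vector was compared with the empty vector in WT mice on Western diet. Pygl was the 1 gene of the 8 that passed, lower in NAMPT, in a comparison that called 13.4% of all genes. Of the other 7 genes, 6 had a negative fold change and Pck1 a positive one, with none past the threshold. This split depended on the scaling. With library size alone Fbp1 and Gys2 were at 0.08, and the median log2 fold change of the 8 genes moved from -0.3 to -0.13. That of all genes moved from 0.004 to 0.156. Pygl had 351, 300, 520, 503, 644 and 606 CPM in WT NAMPT replicates 1 to 6, against 599 to 665 CPM (median 633) in WT EV. Replicates 1 and 2 were far below, 3 and 4 moderately below, and 5 and 6 within the EV range. The log2 fold change was -0.34 ± 0.11 (0.791-fold, adjusted p = 0.0481 by limma), and 4 of 22 alternatives kept the call, with an adjusted p between 0.0116 and 0.224. Leaving out 1 library ended the call for each of WT NAMPT replicates 1 to 4 and of WT EV replicates 1, 2, 6, 7 and 8.

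The same 2 libraries were low for most of the set. Their CPM values are divided by normalization factors of 1.12 and 1.29, which makes them lower than the plain shares of reads. Pcx had 338 and 329 CPM in replicates 1 and 2 and between 577 and 851 CPM in the other 4, against 576 to 841 CPM in WT EV. Slc37a4 had 55.6 and 35.2 CPM there, against 88.2 to 159 CPM in the other 4 and 94.3 to 137 CPM in WT EV. G6pc had 96.4 and 66.1 CPM, below the lowest WT EV library at 142 CPM. For Pcx and Slc37a4 the levels in these 2 mice lay below or within the chow range, and the other 4 mice overlapped WT EV. The fitted log2 fold changes were -0.34 ± 0.14 for Pcx (adjusted p = 0.0888 by limma), -0.36 ± 0.18 for Slc37a4 (0.185) and -0.40 ± 0.42 for G6pc (0.541). For G6pc the estimate ran from -0.74 (without WT NAMPT replicate 5) to -0.08 (without WT EV replicate 2) when 1 library was left out.

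Gys2 had 86.8 and 69.4 CPM in replicates 1 and 2 and between 121 and 178 CPM in the other 4 (log2 fold change -0.07, adjusted p = 0.758 by limma). Pck1 ranged from 562 over a median of 1030 to 1620 CPM (0.19, interval -0.27 to 0.66), with replicates 1 and 2 again lowest. When 1 library was left out, the Pck1 estimate ran from 0.04 to 0.29. Fbp1 differed least, from 732 to 1160 CPM (-0.07, interval -0.28 to 0.14). Ppargc1a was lowest in replicate 2 at 4.50 CPM and between 6.95 and 10.2 CPM in the others, against 7.48 to 12.9 CPM in WT EV (-0.26, interval -0.62 to 0.10).

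Leaving out WT NAMPT replicates 1 and 2 together, a step chosen after their low values were seen so that smaller differences follow from the choice, gave 0 of the 8 genes called by limma (1 at an unadjusted p under 0.05), and Pygl at -0.21 (adjusted p = 0.221). Without them 37 genes of the transcriptome were called in place of 1890. Without replicate 1 or replicate 2 alone, Pygl was at -0.27 (adjusted p = 0.104) and -0.26 (0.119). Without replicate 5, Pygl and Pcx both passed, at -0.43 (0.0116) and -0.47 (0.017). The edgeR quasi-likelihood test and DESeq2 called none of the 8.

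Markers of other cell types and zones moved in the same comparison, and not in replicates 1 and 2 alone. The summed macrophage markers (5 genes) were 257 to 723 CPM in WT NAMPT against 267 to 391 CPM in WT EV, with 4 of 5 called higher. Replicate 3 had the highest macrophage sum at 723 CPM, followed by replicates 1 (681), 2 (668), 4 (515) and 5 (432), all above WT EV. The summed neutrophil markers (5 genes) were 3.50 to 26.1 CPM against 2.73 to 7.66 CPM, highest in replicates 2 and 1 at 26.1 and 21.5 CPM and also above WT EV in replicates 4 and 3 at 17 and 15.2 CPM, with Ly6g at 0 in 5 of the 6 WT NAMPT libraries and in all 6 WT EV libraries. Pericentral hepatocyte markers (6 genes) summed to 4000, 2250, 4440, 4430, 7830 and 9700 CPM in replicates 1 to 6, against 6510 to 11100 CPM in WT EV, so the first 4 lay below every WT EV library and the other 2 within their range. Periportal markers (5 genes) were called higher for 1 of 5 (Cdh1, log2 fold change 1.06), with a median log2 fold change of 0.44 and sums of 731 to 1770 CPM against 841 to 1880 CPM in WT EV. The clock genes were called lower for 5 of 15, led by Arntl (log2 fold change -1.99), Npas2 (-1.98) and Nfil3 (-0.84), and higher for none. Hepatocyte markers summed to 44800 to 63100 CPM in WT NAMPT and 49800 to 66300 CPM in WT EV. These marker and clock gene calls use all libraries and were not read without replicates 1 and 2. The part of these cells and zones in the low values was not tested. With the clock score, taken within groups, as a covariate Pygl kept its call. Replicates 1 and 2 had the 2 highest clock scores of the 6 WT NAMPT libraries, at 1.64 and 2.18.

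**Figure D4:**
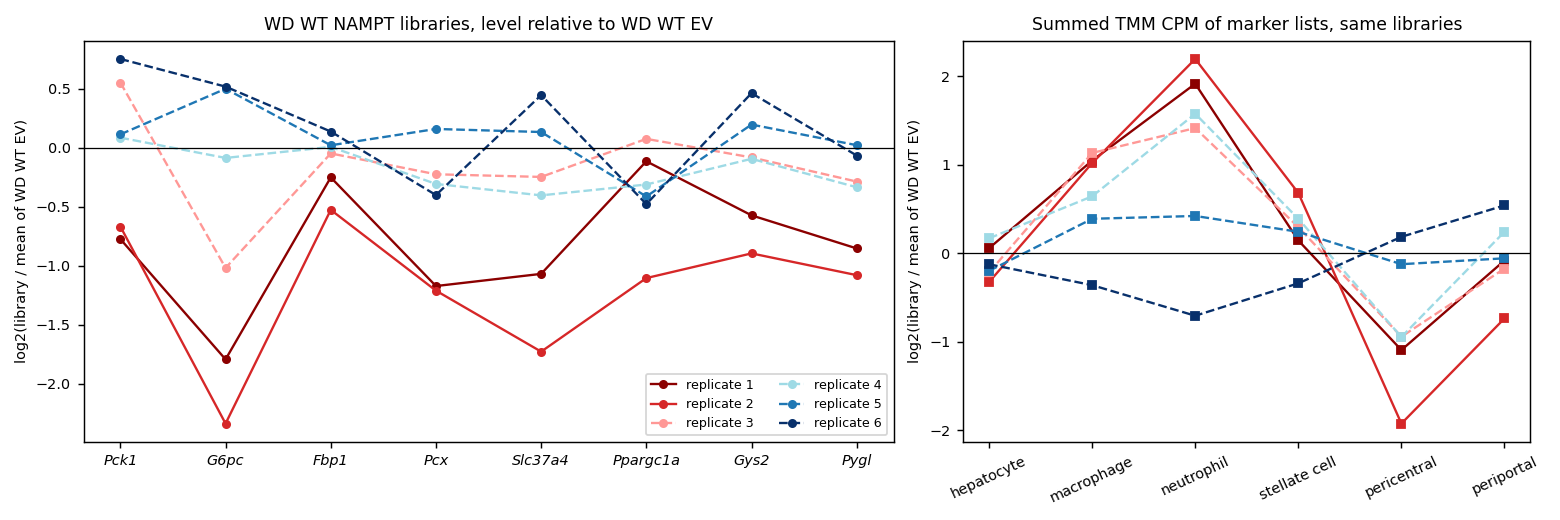
Each of the 6 WD WT NAMPT libraries relative to the mean of WD WT EV (log2 axis), for the 8 genes on the left and for summed marker lists on the right, with solid lines for replicates 1 and 2. Both solid lines run below 0 for all 8 genes, and they have the highest neutrophil and lowest pericentral marker sums.

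In the related lists 5 genes were called higher and 16 lower with NAMPT in WT, of 91, and this split depended on the scaling. It was 6 higher and 10 lower with upper-quartile factors, and it turned to 11 higher and 4 lower with library size alone, which moved the median log2 fold change of all genes from 0.004 to 0.156. Over all genes called, the share that was higher was 57.1% with TMM factors, 67.1% with upper-quartile factors and 88.1% with library size alone. The values that follow are those with TMM factors. Beside the 13.4% of all genes called, the 2 of 20 regulators and 4 of 22 further glycogen genes called lie near the background, and the genes below are given for themselves and not as results about their lists. Substrate entry was lower for 6 of 15, with Gpd1 at 0.681-fold, the aspartate-glutamate carrier Slc25a13 at 0.737-fold and Slc25a10 at 0.74-fold. Of the 3 glycogen-targeting subunits of protein phosphatase 1 that were tested, Ppp1r3b and Ppp1r3c fell. Ppp1r3b fell to 0.47-fold (log2 fold change -1.09 ± 0.28, adjusted p = 0.0161 by limma) and Ppp1r3c to 0.491-fold. Ppp1r3g had a fitted log2 fold change of 0.30 (interval -0.94 to 1.53). Its median was 0.724 CPM in WT NAMPT against 1.29 in WT EV, so its direction is not set. Gbe1 fell to 0.683-fold, while the brain-type phosphorylase Pygb rose 1.54-fold. Shared steps were lower for 3 of 13 (Mdh1 0.802-fold, Got2 0.81-fold, Pgk1 0.858-fold), and the mitochondrial PEPCK gene Pck2 was 1.75-fold higher. The hexokinases Hk2 (2.04-fold) and Hk1 (1.52-fold) rose and fructokinase Khk fell to 0.677-fold. The insulin receptor gene Insr fell to 0.851-fold and Mlxipl, the carbohydrate-responsive factor ChREBP, to 0.758-fold, and Sik1 rose 1.83-fold. Without replicates 1 and 2, 0 of these 91 genes passed by limma, and 29 had an unadjusted p under 0.05.

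In mice labelled LKO the NAMPT vector gave 0 of the 8 genes called by limma, 0 at an unadjusted p under 0.05 and 0 by the edgeR quasi-likelihood test or DESeq2, in a comparison that called 0.00711% of all genes. Pck1 had 891, 1300, 1540, 1730 and 1210 CPM in LKO EV and 1120, 858, 1640, 961 and 933 CPM in LKO NAMPT. The ranges overlapped, and the log2 fold change was -0.43 with an interval of -0.91 to 0.06. Pygl had 649, 688, 522, 617 and 706 CPM in LKO EV and 547, 568, 615, 528 and 606 CPM in LKO NAMPT. Its log2 fold change was -0.15 (interval -0.40 to 0.09), and the lowest library of the 10 was in LKO EV. Pcx differed least, with 659 to 793 CPM in LKO EV, 687 to 803 CPM in LKO NAMPT and a log2 fold change of -0.02 (interval -0.31 to 0.27).

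The remaining genes had log2 fold changes between -0.20 and 0.09. Slc37a4 ranged from 96.3 to 142 CPM in LKO EV and from 87.9 to 128 CPM in LKO NAMPT. Gys2 ranged from 103 to 163 CPM and from 108 to 178 CPM in the same groups, and G6pc from 187 to 432 CPM and from 179 to 527 CPM. The ranges of these genes overlapped in every case.

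Genotype under the empty vector (LKO EV against WT EV) likewise gave 0 of 8 called by limma, by edgeR and by DESeq2, with 0.00711% of all genes called. Pck1 was the 1 gene with an unadjusted p under 0.05. Its 5 LKO EV values of 891 to 1730 CPM (median 1300) overlapped the 537 to 1360 CPM (median 934) of WT EV, and its log2 fold change was 0.50 ± 0.22 (adjusted p = 0.752 by limma). For Pygl and Gys2 the fold changes were 0.00 (interval -0.23 to 0.23) and 0.01 (interval -0.26 to 0.29). Pcx was at -0.03 with an interval of -0.31 to 0.24. G6pc, the most variable of the set, could not be placed more closely than -0.94 to 0.75.

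Genotype under NAMPT (LKO NAMPT against WT NAMPT) gave 0 of 8 called by limma, edgeR and DESeq2 and 0 at an unadjusted p under 0.05, where 7.96% of all genes were called. That share was itself unsteady: 1120 genes were called, against 45 by edgeR, 294 by DESeq2 and 5 without WT NAMPT replicates 1 and 2. Pcx was nearest at 0.29 ± 0.14 (adjusted p = 0.184 by limma), with 687 to 803 CPM in LKO NAMPT against 329 to 851 CPM in WT NAMPT. The LKO values lay within the wider WT range. Related genes were called higher for 12 of 91 and lower for 1, among them Gbe1 (1.69-fold), the UDP-glucose maker Ugp2 (1.59-fold), glycerol kinase Gk (1.49-fold), Slc25a13 (1.44-fold), and the glycerol channel Aqp9 (1.43-fold), with Tat at 0.598-fold. With library size alone the split was 4 higher and 1 lower, and the median of all genes moved from -0.005 to -0.119. Of all genes called, 52.5% were higher with TMM factors, 32.6% with upper-quartile factors and 24.3% with library size alone. Without WT NAMPT replicates 1 and 2, 0 of the 91 passed by limma, and 23 had an unadjusted p under 0.05. Pericentral markers were called higher for 4 of 6 in the same comparison, with sums of 4340 to 10800 CPM in LKO NAMPT against 2250 to 9700 CPM in WT NAMPT. Macrophage markers were lower for 1 of 5, with sums of 264 to 574 against 257 to 723 CPM, and 1 of 4 neutrophil, 1 of 5 periportal and 1 of 4 cholangiocyte markers were lower. The marker calls were not read without WT NAMPT replicates 1 and 2, and the part of these cells and zones in the calls of related genes was not tested. This comparison and that of NAMPT with EV in WT share the WT NAMPT libraries.

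The difference between the NAMPT effects in LKO and in WT was tested as an interaction. It gave 0 of 8 called by limma, edgeR and DESeq2 and 0 at an unadjusted p under 0.05, with 0.00711% of all genes called. Pck1 had the largest estimate at -0.62 (interval -1.29 to 0.05), then Pcx at 0.32 (interval -0.08 to 0.73) and G6pc at 0.28 (interval -0.97 to 1.52). For Pygl, the gene called in WT and not in LKO, the difference of the 2 effects was 0.19 ± 0.16 (interval -0.15 to 0.53, adjusted p = 0.521 by limma).

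Opposed steps were also set against each other as ratios per length in each library, with no test: Pck1 against Pklr, and glycogen synthase against phosphorylase. The ratio of Pck1 to Pklr was 6.07, 10.1 and 24.5 on chow and ran from 1.25 over a median of 2.56 to 4.63 in WD WT EV. The chow libraries were all above the WD libraries of this group, while Pck1 alone overlapped. The ratio ran from 2.28 over a median of 4.61 to 6.06 in WT NAMPT, where replicates 1 and 2 had the 2 highest ratios at 5.29 and 6.06. In LKO EV it ran from 1.99 over a median of 2.45 to 4.57, and in LKO NAMPT from 2.4 over 3.04 to 6.25. LKO NAMPT replicate 3, at 6.25, lay above the lowest chow library. The ratio of Gys2 to Pygl stayed between 0.227 and 0.423 over all 25 libraries.

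Whether mice high in one of the genes were high in another was read within groups. Of 28 pairs, correlated over 25 libraries as deviations of log2 CPM from the group mean, 4 passed a two-sided permutation test adjusted over the 28 pairs. Slc37a4 and Pygl had Pearson r = 0.87 and Spearman rho = 0.71 (permutation p = 0.00069 and 0.00254, adjusted 0.00966 and 0.0356), and r = 0.76 without the 2 libraries farthest from the median. G6pc and Pygl had r = 0.76 and rho = 0.69 (permutation p = 5e-05 and 0.00021, adjusted 0.0014 and 0.00588), and r = 0.66 without the farthest 2. Both pairs join an enzyme or carrier of glucose release to glycogen breakdown.

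Slc37a4 and Gys2 had r = 0.75 and rho = 0.57 (permutation p = 0.00136 and 0.00703, adjusted 0.0127 and 0.0656), and r = 0.49 without the farthest 2. Pck1 and Gys2 had r = 0.63 and rho = 0.56 (permutation p = 0.00316 and 0.0102, adjusted 0.0221 and 0.0712), and r = 0.66 without the farthest 2. These 2 pairs did not pass by rank. Pck1 and G6pc, which share hormone control, had r = 0.17 and rho = 0.19 (permutation p = 0.517 and 0.451, adjusted 0.579 and 0.543), and r = 0.18 without the farthest 2. The correlations lean on WT NAMPT replicates 1 and 2: without both, 0 of 28 pairs passed (lowest adjusted permutation p = 0.0678), and r was 0.61 for Slc37a4 and Pygl, 0.58 for G6pc and Pygl, 0.42 for Slc37a4 and Gys2 and 0.41 for Pck1 and Gys2. Without either one alone, only G6pc and Pygl passed.

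**Figure D5:**
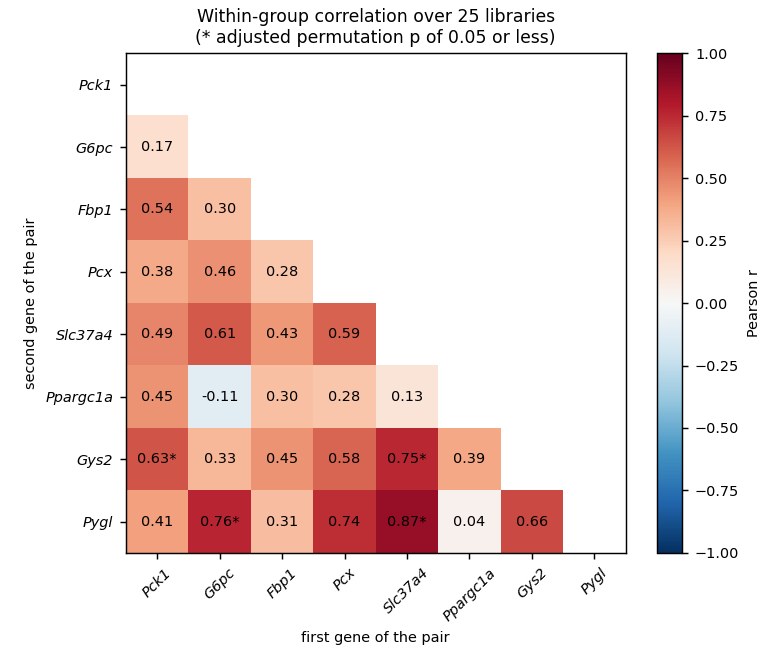
Pearson r for each of the 28 pairs of genes over 25 libraries, computed on deviations from the group mean, with colour from blue (-1) to red (1). Asterisks mark the 4 pairs with an adjusted permutation p of 0.05 or less, led by Slc37a4 with Pygl at 0.87.

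Across the 12735 genes with a mean of at least 1 CPM, the genes whose within-group pattern was most like each of the 8 were listed by Pearson r over the 25 libraries, as a description. A second r, after "then", leaves out WT NAMPT replicates 1 and 2. Pcx was nearest to Pdha1, a subunit of pyruvate dehydrogenase (0.94, then 0.89), Acaa1b (0.93, then 0.78) and Hsd17b4 (0.92, then 0.73), both of peroxisomal fatty acid oxidation. Pygl was nearest to Pdhb, another pyruvate dehydrogenase subunit (0.90, then 0.76), Khk (0.90, then 0.69) and Hcn3 (0.90, then 0.67). Slc37a4 was nearest to Ido2 (0.93, then 0.85), Prodh (0.92, then 0.78) and the glucose transporter Slc2a2 (0.92, then 0.81). Gys2 was nearest to Rab43 (0.93, then 0.87), Ppara (0.92, then 0.85) and Fzd4 (0.92, then 0.89).

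Pck1 was nearest to Glt1d1 (0.86, then 0.79 without WT NAMPT replicates 1 and 2), Selenoo (0.84, then 0.75) and the urea cycle enzyme Asl (0.84, then 0.78). Fbp1 was nearest to Retreg2 (0.83, then 0.77), Aqp11 (0.82, then 0.75) and urate oxidase Uox (0.81, then 0.76). G6pc was nearest to the insulin receptor substrate Irs1 (0.86, then 0.91), Ergic1 (0.78, then 0.65) and Shroom1 (0.77, then 0.65). Ppargc1a was nearest to Slc25a32 (0.77, then 0.75), Fam213a (0.75, then 0.72) and Mapk1ip1 (0.73, then 0.76). Each of these genes was picked as the highest of all genes listed, and libraries share depth and makeup, so no test was attached.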

How the data were processed

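Liver RNA of 25 mice was sequenced as single reads. Per the submitters' processing notes, the authors used STAR 2.5.1a for alignment and featureCounts 1.4.6-p5 for counting against an Ensembl annotation of GRCm38, keeping reads that had a single, unambiguous place. The deposited counts are whole numbers per gene. The CPM and RPKM values that the authors also deposited were recomputed from the counts and gene lengths, with a largest relative deviation of 5.9e-14, and only the counts were used further. Whether counting used strand is not given in the sources used here, and none of the 8 genes shares exonic bases with another gene. Symbols came from GENCODE M21 for 40254 of 41388 identifiers (Tf is listed as Trf).

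Groups followed the sample titles. The general treatment text names the insert as SIRT1 and the titles name NAMPT. Genes over 1 CPM in at least 2 libraries were kept, and 4 ribosomal RNA genes were left out. TMM factors came from edgeR 4.0.16. The model (limma 3.58.1 under R 4.3.3, function voomWithQualityWeights) held every library, a mean for each of the 5 groups and no covariate. Genes were called at a Benjamini-Hochberg adjusted p of 0.05 or less over all 14065 genes. Values ± are SE for fold changes and SD for levels. P-values rest on the spread between these libraries. In the limma fit the libraries did not count equally, with quality weights from 0.336 (WT NAMPT replicate 6) to 2.5 (chow replicate 2). Pair correlations used log2(CPM + 0.5) and 100000 permutations within groups. RPKM values in the text are TMM-normalized CPM per kilobase of the deposited gene length.

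As alternatives served DESeq2 1.42.0, edgeR's quasi-likelihood test, no quality weights, upper-quartile factors, library size alone, no filter, only the groups compared, a replicate block, a clock-gene score and leaving out each library. For the correlations they were the 22 WD libraries, library size alone, a pseudocount of 1 and leaving out each library. The exclusion of WT NAMPT replicates 1 and 2 together was added after the data were seen. Replicate numbers recur between groups, but same-numbered libraries did not all deviate together, so the main fit has no block. No pair of libraries was alike within sampling noise (smallest chi-square per degree of freedom 15.1). On simulated counts for 14065 genes with 200 changed 2-fold, the fit recovered 70.5% for NAMPT against EV in WT, with 4 false calls, and 68% for diet, with 8. The simulated libraries shared 1 mean per gene apart from the changed genes, and none stood apart as WT NAMPT 1 and 2 do. The false-call counts thus do not cover that feature of the data.

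The 8 genes were named in every comparison. From the other lists, called genes were named, at most the 3 largest rises and 3 largest falls per list and comparison, and for each of the 8 the 3 genes of highest r. The 8 genes and all lists were chosen with earlier results of these data known. Cholangiocyte, endothelial, stellate cell, T and B cell and exocrine pancreas markers were also measured, and their values close the text. Some genes of the lists, and results that need them, are not reported here.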

Additional observations from a re-analysis of the deposited data

Results flagged for a closer look

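The ratio of Gys2 to Pygl per length was 0.423 in WT NAMPT replicate 6. It was the highest of its group of 6, with the nearest other library at 0.356, a gap of 0.73 of the group's whole range, which is more than Dixon's test allows. Of 44 groups of values tested in this way 1 passed, and chance gives about 1 in 20.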

How the results depend on the processing

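For diet, 4 genes were called, against 1 by edgeR and without quality weights and 2 by DESeq2, without the filter and with the replicate block. For NAMPT in WT, 1 gene was called, against 0 by edgeR, DESeq2, without quality weights, with upper-quartile factors, library size alone, no filter or only the groups compared. The counts in the other 3 comparisons and the interaction stayed at 0 in every alternative run. The replicate block called Pcx (-0.49, adjusted p = 0.0472 by limma) in place of Pygl (-0.25, 0.224). Same-numbered libraries correlated at a mean r of 0.11, with 3 of 4 over 0.1, for NAMPT against EV in WT, and at 0.06 or less elsewhere, so the block is no evidence of pairing. With library size alone 1 pair of genes passed. Leaving out each library in turn gave 2 to 4 genes for diet, 0 to 2 for NAMPT in WT and 1 to 7 pairs. The diet count was 2 without chow replicate 1 or 2 or without WT EV replicate 2. Without WT NAMPT replicates 1 and 2, 0 genes and 0 pairs passed. Over all genes, 1890 were called for NAMPT in WT, against 428 by edgeR, 1194 by DESeq2, 192 without weights, 524 without the filter, 804 with only the groups compared, 884 with the block, 2047 with the clock score, 2281 with library size alone and 1808 with upper-quartile factors. For diet 3101 were called, against 1322 by edgeR, 1745 by DESeq2, 1201 without weights, 1970 without the filter, 2649 with only the groups compared, 3842 with the block, 3330 with the clock score, 3228 with library size alone and 3167 with upper-quartile factors. For LKO NAMPT against WT NAMPT 1120 were called, against 45 by edgeR, 294 by DESeq2, 38 without weights, 120 without the filter, 13 with only the groups compared, 412 with the block, 840 with library size alone, 1058 with upper-quartile factors, 1319 with the clock score and 5 without WT NAMPT replicates 1 and 2.

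Log2 fold changes that changed sign were never called. For LKO EV against WT EV, Pygl was at 0.00 by edgeR, DESeq2, without weights, with upper-quartile factors and without the filter, 0.03 with library size alone, 0.01 with the block and 0.02 with the clock score. G6pc was at 0.02 without weights and 0.05 with the clock score, and Gys2 at 0.00 with the block. For LKO NAMPT against LKO EV, Ppargc1a was at 0.04 by edgeR and 0.03 by DESeq2, and Pcx at 0.01 with the block. For LKO NAMPT against WT NAMPT, Pck1 was at 0.08 by edgeR, 0.07 by DESeq2 and 0.13 without weights, Fbp1 at -0.05 with library size alone, and G6pc at -0.34 with the block. For NAMPT in WT, Fbp1 and Gys2 were at 0.08 with library size alone and G6pc at 0.01 with the block. The interaction of Ppargc1a was 0.00 with upper-quartile factors and -0.10 with library size alone, and with the block those of G6pc and Slc37a4 were -0.33 and -0.06. Without WT NAMPT replicates 1 and 2, G6pc was at 0.02 and Gys2 at 0.06 for NAMPT in WT, G6pc at -0.26 and Fbp1 at -0.01 for LKO NAMPT against WT NAMPT, and the interactions of G6pc and Slc37a4 were -0.16 and -0.07. The cause of these changes was not tested. DESeq2 gave no adjusted p for 3 interaction values.

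Leaving out 1 library at a time, Ppargc1a for diet ran from -0.69 to -0.25 and for LKO NAMPT against WT NAMPT from 0.14 to 0.35, Fbp1 for diet from 0.01 to 0.34, and G6pc for NAMPT in WT from -0.74 to -0.08. The ranges that crossed 0 were, for G6pc, -0.29 to 0.22 (LKO EV against WT EV), -0.44 to 0.07 (NAMPT in LKO), -0.13 to 0.52 (LKO NAMPT against WT NAMPT), -0.77 to 0.01 (diet) and -0.04 to 0.61 (interaction). For Gys2 they were -0.07 to 0.09 (LKO EV against WT EV), 0.00 to 0.18 (NAMPT in LKO) and -0.16 to 0.01 (NAMPT in WT). For Pck1 they were -0.22 to 0.00 (LKO NAMPT against WT NAMPT) and -0.46 to 0.06 (diet), and for Pcx -0.10 to 0.00 (LKO EV against WT EV) and -0.05 to 0.01 (NAMPT in LKO). Ppargc1a ran from -0.02 to 0.20 (interaction) and Pygl from -0.05 to 0.08 (LKO EV against WT EV). For a gene that did not pass, its own interval bounds the difference that its spread leaves possible.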

Other observations

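Other cell types were measured in the same libraries. Stellate cell markers (4 genes) summed to 143 to 290 CPM in WT NAMPT, 156 to 211 CPM in WT EV and 137 to 172 CPM on chow. With NAMPT in WT, Col1a1 (3.24-fold) and Des (1.57-fold) were called higher. Lrat, with a mean of 44.4 CPM in WT NAMPT against 46.5 in WT EV, and Reln (117 against 113) were not called. Endothelial markers (4 genes) summed to between 179 and 240 CPM in all 5 groups, with Pecam1 (1.28-fold) called higher with NAMPT in WT. Cholangiocyte markers (4 genes) summed to 8.02 to 23.1 CPM in WT NAMPT and 3.58 to 13.3 CPM in LKO NAMPT, with Sox9 at 0.367-fold in LKO NAMPT against WT NAMPT. Under the empty vector Sox9 was low as well, with a mean of 4.28 CPM in LKO EV against 8.89 in WT EV. None of the 4 was called there, and 3 had positive fold changes. T and B cell markers (4 genes) stayed between 1.66 and 5.35 CPM. Exocrine pancreas markers (3 genes) summed to 15.0 to 34.7 CPM on chow and 7.18 to 32.4 CPM in WD WT EV. Nearly all of this was Cela1, with means of 27.5 and 15.8 CPM. Prss2 had means of 0 and 0.0378 CPM in these groups, and Ctrb1 0.0148 and 0, so the sum is no measure of pancreas RNA.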
